A study of Mus musculus with 16 samples.

Results

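The genes described here encode extracellular matrix made outside the laminin-332 trimer: collagens, the other laminin chains, basement membrane linkers, matricellular glycoproteins, the enzymes that hydroxylate and cross-link collagen, and proteoglycans. They were chosen by name, as a list of 50 mouse gene symbols. The list holds no limit on a measured value, but it was drawn up with earlier results of these data known. In the table of 14474 genes, 46 of the 50 were present, and *Col8a1*, *Nid2*, *Loxl2* and *Loxl4* were not in it.

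Basal keratinocytes sit on a basement membrane in which laminin and type IV collagen form separate networks, joined by nidogen and by the heparan sulphate proteoglycans perlecan and agrin. Integrin α3β1 is a receptor of basal keratinocytes for laminin-332, and type VII collagen anchors the membrane to the dermis below. Fibrillar collagens such as types I, III and V are mainly products of dermal fibroblasts, whereas matricellular proteins such as thrombospondins, tenascin-C and SPARC act on cell adhesion and turnover of the matrix rather than as its scaffold.

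The study sequenced poly(A) RNA of immortalized mouse keratinocytes that lack α3 integrin (MKα3−) and of MKα3− cells to which human α3 integrin had been given back (MKα3+). Each line was incubated for 16 to 24 h with recombinant laminin-332 (LN332) at 0.02 mg/mL or with an equal volume of vehicle (PBS with glycine and NaN3), which gave 4 groups of 4 libraries. All 4 groups were grown on collagen-coated dishes in low-calcium medium, and no group was left without a matrix coat. The comparisons ask which genes depend on α3 integrin and which respond to added LN332. Each genotype was 1 immortalized line, so α3 integrin and any other difference between the lines cannot be told apart. The study calls its in vitro data points experimental replicates without saying that they were separate cultures, so the p-values measure the spread between these libraries, which may be technical.

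Counted reads ranged from 21735708 to 29338370 per library. *Itga3*, the targeted gene, had a mean of 259.2 ± 42.4 CPM (counts scaled to a common library size, SD, n = 4) in MKα3− cells and 276.9 ± 46.8 CPM in MKα3+ cells with vehicle, and 267.9 ± 55.6 and 302.6 ± 20.3 CPM with LN332. Counts over the mouse gene therefore did not separate the lines and checked none of the labels, since neither the deleted part of the gene nor the human sequence was counted on its own. All 10 keratinocyte markers were present, with a summed level of at least 9439 CPM in every library. In MKα3+ cells 7 of the 10 were below 0 on the log2 scale against MKα3− cells, and 3 above, in each medium. Their medians were -0.32 with vehicle and -0.46 with LN332, beside 0.01 over all genes. Of the keratinocyte markers, *Krt15* (log2 fold change -2.64) and *Perp* (-0.70) were called lower in MKα3+ cells with vehicle. With LN332 *Krt5* (-0.80), *Trp63* (-0.91) and *Perp* (-0.78) were lower and *Cdh1* (0.82) was higher. Of 12 fibroblast and mesenchymal markers, *Thy1*, *Prrx1*, *Dcn* and *Lum* were not in the table, and the other 8 summed to 47.7 to 56.0 CPM in MKα3− and 36.0 to 49.4 CPM in MKα3+ cells with vehicle, and to 43.7 to 63.3 and 35.9 to 43.6 CPM with LN332. That sum follows *Twist2*, which was lower in MKα3+ cells (25.2 ± 2.78 and 5.38 ± 0.75 CPM with vehicle, log2 fold change -2.23, and -2.44 with LN332). The values of 6 of the 8 were above 0 with vehicle, with a median of 0.27 and *Twist1* called higher (0.94), and 5 of the 8 were above 0 with LN332 (median 0.20). The part of these markers in the results was not tested. The 4 immune markers in the table summed to 27.9 to 76.2 CPM in MKα3− and 83.8 to 306 CPM in MKα3+ cells with vehicle, and to 20.8 to 82.3 and 27.2 to 297 CPM with LN332. Vehicle replicates 3 and 4 and LN332 replicate 4 of MKα3+ stood apart in the macrophage gene *Adgre1* (34.9, 34.5 and 35.2 CPM, against at most 10.4 CPM in the other 13 libraries). Without these 3 libraries the vehicle call of *Krt15* was lost (-2.30, adjusted p = 0.137). So was that of the immune marker *Lyz2*, called higher with all libraries (1.94, adjusted p = 0.26 without them). Calls of matrix genes between the lines that were lost are given further on. In bulk RNA, fewer cells of a type and less RNA per cell cannot be told apart.

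Among the 46 genes, abundance was strongly uneven. Scaled to CPM per kilobase of exon, the highest levels in MKα3− cells with vehicle were those of *Sdc1*, a cell-surface heparan sulphate proteoglycan (224 ± 33.9 CPM per kilobase, SD, n = 4), *Thbs1*, thrombospondin-1 (139 ± 36.7), *Col18a1*, the collagen that carries endostatin (136 ± 6.23), and *Lama5*, the α chain of laminin-511 and laminin-521 (105 ± 7.92). The ranges of *Thbs1* and *Col18a1* overlapped at 112 to 190 and 127 to 140 CPM per kilobase, so this pair of neighbours did not differ beyond its spread. On the CPM scale, 12 genes had a mean over 100 CPM in all 4 groups: *Col4a1*, *Col4a2*, *Col7a1*, *Col18a1*, *Lama5*, *Lamb1*, *Lamc1*, *Hspg2*, *Agrn*, *Thbs1*, *Sdc1* and *Sdc4*. Another 21 genes stayed under 5 CPM in all 4 groups, among them *Col5a1*, *Col6a1*, *Col6a2*, *Postn*, *Fstl1*, *Lox* and *Bgn*. *Lox*, lysyl oxidase, had only 3 to 33 counts per library and *Lama4* had 4 to 40, so differences in such genes were resolved poorly at this depth.

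**Figure D1:**
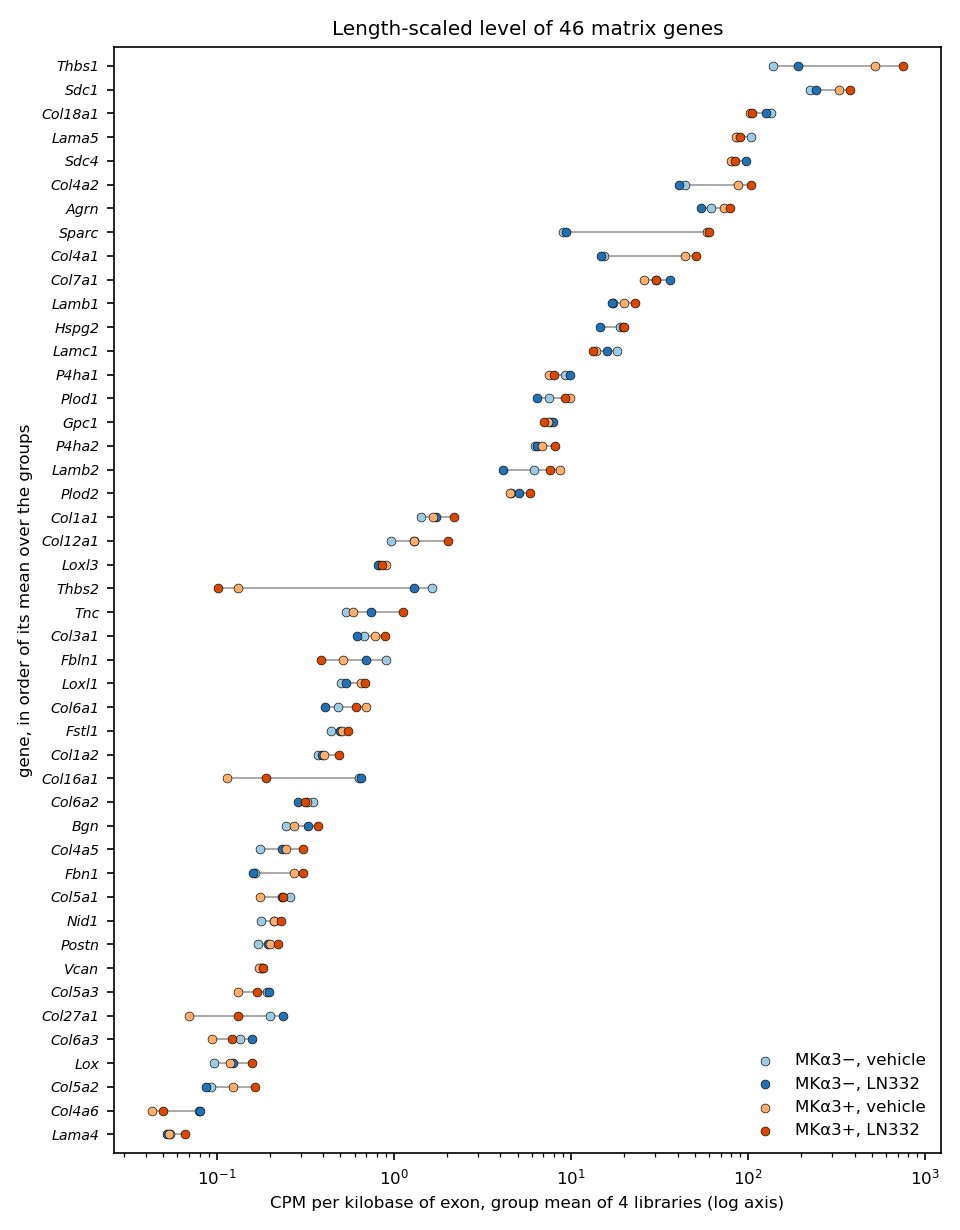
Mean level of each of the 46 genes in each group, in CPM per kilobase of exon on a log axis; each point is the mean of 4 libraries and the grey line joins the lowest and highest group mean. Most genes have 4 nearly coincident points, while *Sparc*, *Thbs1*, *Thbs2*, *Col4a1* and *Col16a1* have MKα3− and MKα3+ points that are set apart.

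MKα3+ cells differed from MKα3− cells in a limited number of these genes, in both directions. With vehicle, 10 of 46 (21.7%) passed the test, with an adjusted p under 0.05 and a log2 fold change of more than 0.5 in size, where 18.5% of all genes tested did so. *Col4a1*, *Col4a2*, *Sparc*, *Thbs1*, *Fbn1* and *Sdc1* were higher (6 of 46, beside 10.9% of all genes) and *Col27a1*, *Col16a1*, *Thbs2* and *Fbln1* were lower in MKα3+ cells (4 of 46, beside 7.56%). With LN332, 12 of 46 (26.1%) passed, beside 20.6% of all genes. Of these 12, *Col5a2*, *Col4a1*, *Col4a2*, *Lamb2*, *Agrn*, *Sparc*, *Thbs1*, *Fbn1*, *Plod1* and *Sdc1* were higher (11.7% of all genes) and *Col16a1* and *Thbs2* were lower (8.92%). The shares lie near those of all genes, so the list as a whole is not shown to differ from the rest of the transcriptome. The 8 genes called in both media had the same direction in both. The vehicle and LN332 comparisons share no library, but they compare the same lines in 1 fit, so the agreement is not independent replication. The lines did not overlap in CPM in 28.3% of the 46 genes with vehicle and in 23.9% with LN332. Among all genes the shares were 32.9% and 26.5%, so such separation was no commoner in the list.

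The 46 genes were also averaged in each library. The mean log2 fold change was 0.08 with vehicle and 0.22 with LN332, beside 0.07 over all genes in each comparison, and the medians were 0.19 and 0.34, beside 0.01. The mean log2(CPM + 0.5) over the 46 genes was 3.90 ± 0.29 in MKα3− and 3.99 ± 0.16 in MKα3+ cells with vehicle (SD, n = 4), and 3.92 ± 0.13 and 4.15 ± 0.06 with LN332. With vehicle the lines overlapped in this mean, from 3.51 to 4.20 and from 3.78 to 4.13, and the difference was smaller than the SD between replicates of one group (0.18). With LN332 they ranged from 3.81 to 4.10 and from 4.09 to 4.23, and so met only at the edge, with a difference larger than that SD.

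**Figure D2:**
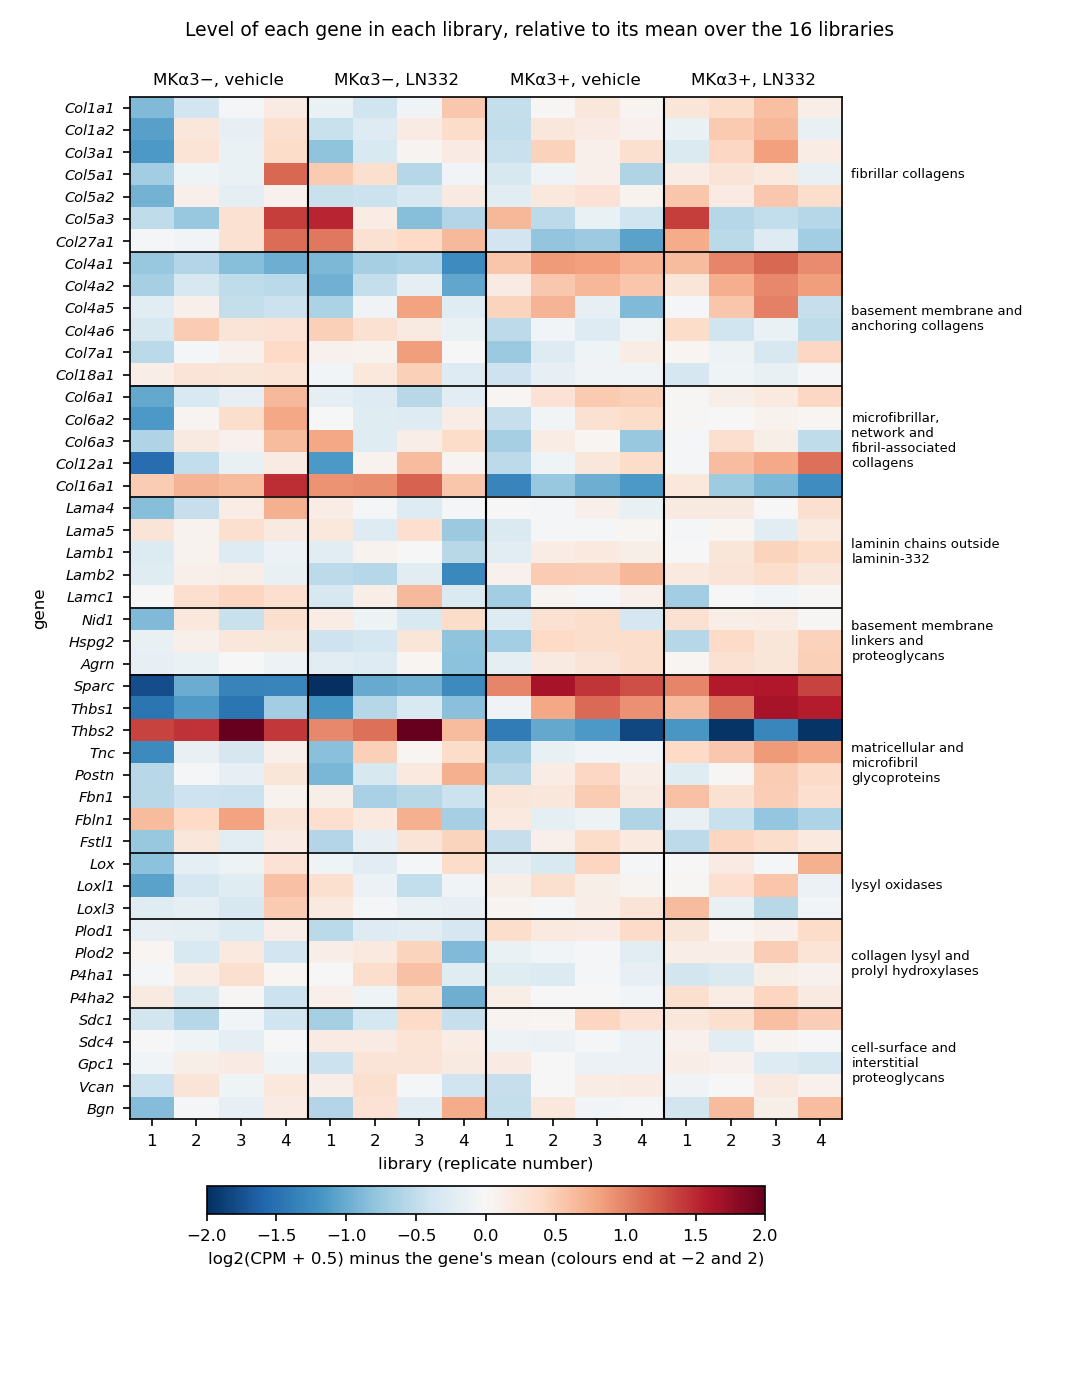
Level of each of the 46 genes (rows, grouped by role) in each of the 16 libraries (columns, by group and replicate number), as log2(CPM + 0.5) minus the mean of that gene over all libraries. *Sparc*, *Col4a1* and *Col4a2* are red (above the mean) in all 8 MKα3+ and blue (below it) in all 8 MKα3− libraries, and *Thbs1* is too except for a near-white vehicle replicate 1 of MKα3+; *Thbs2* shows the reverse, as does *Col16a1* except in LN332 replicate 1 of MKα3+.

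Both chains of the main type IV collagen were higher in MKα3+ cells. *Col4a1* and *Col4a2* encode the α1 and α2 chains of the major network collagen of basement membranes and lie head to head on chromosome 8, at chr8:11198423-11312889 and chr8:11312805-11449287 (GRCm38.p6, the mm10 build). *Col4a1* measured 117, 133, 110.0 and 99.99 CPM in MKα3− cells and 290.3, 356, 351 and 321 CPM in MKα3+ cells with vehicle. With LN332 it measured 107, 124, 128 and 82.6 CPM in MKα3− and 309, 389, 438 and 380.4 CPM in MKα3+ cells. Every MKα3+ library was above every MKα3− library in both media, with a wide gap between the lines. The rise was 2.88-fold with vehicle (log2 fold change 1.52 ± 0.14 SE, adjusted p = 3.15e-07) and 3.46-fold with LN332 (1.79 ± 0.14, adjusted p = 5.26e-08).

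*Col4a2* measured 263, 333, 291 and 286 CPM in MKα3− and 464, 606, 659 and 609 CPM in MKα3+ cells with vehicle. In LN332 medium, levels were 213, 298, 362 and 201 CPM in MKα3− and 494, 690.4, 810.0 and 745 CPM in MKα3+ cells. The lines did not overlap in either medium, with replicate 1 the lowest of MKα3+ in both. The log2 fold change was 0.99 ± 0.18 with vehicle (adjusted p = 0.000624) and 1.38 ± 0.18 with LN332 (adjusted p = 2.18e-05).

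The ratio of the chains was read in each library. Per kilobase, *Col4a2* stood to *Col4a1* as 2.90 ± 0.29 to 1 in MKα3− cells and 1.995 ± 0.16 to 1 in MKα3+ cells with vehicle (SD, n = 4), and as 2.72 ± 0.38 and 2.03 ± 0.17 with LN332. The MKα3+ ratio was lower in every library in both media (exact two-sided permutation test of 4 against 4, p = 0.0286 in each, the smallest such a test can give, and 0.0686 after Benjamini-Hochberg adjustment over 12 ratio tests). The adjusted value does not pass 0.05. No single p can go below 0.0286, so it could pass only if more of the 12 tests reached that limit. The test therefore cannot decide whether the chains rose unequally, and an unequal rise is not shown. The exons of the genes share 22 bases on opposite strands, and whether reads were counted by strand is not given in the sources used here.

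The start regions of the pair are printed because the genes are transcribed away from one another from nearly the same place and rose together. Each RefSeq window (GRCm38.p6) runs from 250 bases before to 50 bases after a transcription start on the strand of its gene. The starts used for the windows, 11312826 for *Col4a1* and 11312805 for *Col4a2*, lie 21 bases apart, and the windows share 78 bases. That *Col4a1* start is not the end of the gene position given above (11312889). Capitals mark each match, on either strand, to the TATA box core TATAA, to CCAAT (the CCAAT box), to the GC box core GGGCGG, to the AP-1 site TGACTCA or to the hypoxia response core ACGTG. The windows lie at chr8:11312777-11313076 (minus strand) and chr8:11312555-11312854 (plus strand).
*Col4a1* start region: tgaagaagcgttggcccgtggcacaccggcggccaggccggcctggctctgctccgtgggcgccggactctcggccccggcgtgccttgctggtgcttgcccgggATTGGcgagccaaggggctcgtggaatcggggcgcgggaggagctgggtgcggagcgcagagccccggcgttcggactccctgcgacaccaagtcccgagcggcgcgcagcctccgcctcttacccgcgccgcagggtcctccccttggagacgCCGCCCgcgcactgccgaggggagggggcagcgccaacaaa
*Col4a2* start region: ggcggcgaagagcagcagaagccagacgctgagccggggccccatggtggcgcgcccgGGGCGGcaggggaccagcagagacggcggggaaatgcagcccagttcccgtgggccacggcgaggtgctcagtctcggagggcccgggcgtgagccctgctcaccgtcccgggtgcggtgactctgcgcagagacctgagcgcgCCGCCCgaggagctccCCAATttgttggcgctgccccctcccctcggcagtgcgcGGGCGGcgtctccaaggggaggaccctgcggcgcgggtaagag
Each window held 1 CCAAT match. The *Col4a1* window held 1 GGGCGG match and the *Col4a2* window held 3, with a GC content of 74% and 73.7%. The *Col4a1* match lies in the shared bases and is the last *Col4a2* match, read on the other strand.

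The other basement membrane and anchoring collagens were not called in either medium. *Col18a1* was the most abundant of them, with 984 CPM in the highest and 889 CPM in the lowest MKα3− library and 612 to 778 CPM in MKα3+ cells with vehicle. Those groups did not overlap and the adjusted p was 0.0329, but the log2 fold change of -0.40 ± 0.14 was under the size required, and with LN332 the groups overlapped (-0.24 ± 0.13, adjusted p = 0.185). *Col7a1*, the anchoring fibril collagen, had log2 fold changes of -0.21 ± 0.22 and -0.24 ± 0.23 in the vehicle and LN332 comparisons. *Col4a5* and *Col4a6*, minor type IV chains of skin, were under 5 CPM throughout. Limma-voom with sample quality weights called *Col4a6* lower in MKα3+ cells with LN332 (-1.14, adjusted p = 0.0303).

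The largest changes of the whole list were in matricellular glycoproteins, and they went both ways. *Sparc* (chr11:55394159-55420080) encodes a collagen-binding glycoprotein of basement membranes. It measured 25.02, 43.5, 34.0 and 34.4 CPM in MKα3− and 171, 272, 234 and 212 CPM in MKα3+ cells with vehicle. In LN332 the values were 19.0, 42.7, 44.1 and 35.6 CPM in MKα3− and 171, 260.4, 263 and 222 CPM in MKα3+ cells. All 8 MKα3+ libraries were far above all 8 MKα3− libraries. *Sparc* rose 6.53-fold with vehicle (log2 fold change 2.71 ± 0.23, adjusted p = 1.54e-07) and 6.70-fold with LN332 (2.74 ± 0.24, adjusted p = 1.42e-07).

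*Thbs2* (chr17:14665500-14694262), thrombospondin-2, an inhibitor of angiogenesis, moved the other way. It measured 8.53, 9.12, 19.3 and 8.91 CPM in MKα3− and 0.837, 1.24, 1.10 and 0.504 CPM in MKα3+ cells with vehicle. After LN332 the values were 6.402, 7.13, 18.1 and 4.99 CPM in MKα3− and 1.08, 0.406, 0.934 and 0.412 CPM in MKα3+ cells. No MKα3+ library reached the lowest MKα3− value, and replicate 3 of MKα3− was high in both media. The fall was 12.2-fold with vehicle (log2 fold change -3.61 ± 0.58, adjusted p = 0.000159) and 12.5-fold with LN332 (-3.64 ± 0.65, adjusted p = 0.000383). Counts in the library with the fewest came to only 10, so the size of this fold is less certain than its direction.

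*Thbs1* encodes thrombospondin-1, the close relative of thrombospondin-2 and an activator of latent TGF-β, and per kilobase it was the most abundant of the 46 genes in MKα3+ cells in both media. With vehicle it rose from a mean of 843.8 CPM (681 to 1154) to 3154 CPM (1788 to 4103), a log2 fold change of 1.88 ± 0.26 (adjusted p = 4.19e-05). With LN332 it rose from 1165 CPM (819 to 1524) to 4563 CPM (2892 to 5892), a log2 fold change of 1.95 ± 0.27 (adjusted p = 3.57e-05). The lines did not overlap in either medium, so the thrombospondin pair moved in opposite directions in the same libraries.

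*Sparc* and *Thbs2* carried the largest rise and the largest fall, and their start regions are printed to set beside those of the type IV collagen pair. They lie at chr11:55420031-55420330 and chr17:14694213-14694512, both on the minus strand, and the table of start regions held none for *Thbs1*.
*Sparc* start region: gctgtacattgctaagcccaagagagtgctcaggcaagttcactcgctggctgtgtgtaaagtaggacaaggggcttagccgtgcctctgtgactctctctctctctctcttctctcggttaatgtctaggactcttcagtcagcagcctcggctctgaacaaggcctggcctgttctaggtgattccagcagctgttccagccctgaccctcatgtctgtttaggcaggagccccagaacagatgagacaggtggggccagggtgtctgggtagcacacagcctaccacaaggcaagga
*Thbs2* start region: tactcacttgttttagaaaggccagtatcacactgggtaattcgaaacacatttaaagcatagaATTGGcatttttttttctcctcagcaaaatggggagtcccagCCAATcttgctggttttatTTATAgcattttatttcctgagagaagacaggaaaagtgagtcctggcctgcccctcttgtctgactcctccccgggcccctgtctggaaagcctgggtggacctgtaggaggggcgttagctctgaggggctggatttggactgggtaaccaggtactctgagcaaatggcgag
The *Sparc* window held none of the 5 motifs, and the *Thbs2* window held 2 CCAAT matches and 1 TATAA match. Their GC contents were 55.3% and 48.3%.

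*Fbn1*, fibrillin-1 of elastic microfibrils, rose at low abundance, from 2.004 to 3.31 CPM with vehicle (0.74 ± 0.22, adjusted p = 0.0162) and from 1.95 to 3.71 CPM with LN332 (0.98 ± 0.22, adjusted p = 0.00277). The lines did not overlap in either medium. The vehicle call was lost without MKα3− vehicle replicate 1 (adjusted p = 0.0518) and without MKα3+ vehicle replicate 3 (0.0542). Of its exon bases, 20.1% also lie in *Gm9913* on the opposite strand. *Fbln1*, fibulin-1, fell from 3.93 to 2.26 CPM with vehicle (-0.81 ± 0.29, adjusted p = 0.0423) and stood at 3.06 and 1.69 CPM with LN332 (-0.82 ± 0.33, adjusted p = 0.0666). This vehicle call depended on single libraries: without any 1 of MKα3− vehicle replicates 1, 2 and 3, MKα3+ vehicle replicates 2, 3 and 4 or MKα3+ LN332 replicate 2 the adjusted p lay between 0.0503 and 0.151. The vehicle call was also missed by edgeR's quasi-likelihood test (adjusted p = 0.0558). With LN332 *Fbln1* was called by that test (adjusted p = 0.039), DESeq2 (0.0193) and limma-voom with sample quality weights (0.00633). It was also called with LN332 without MKα3− LN332 replicate 4 (-1.10, adjusted p = 0.00539). *Tnc*, *Postn* and *Fstl1* were not called between the lines in either medium. *Tnc* had means of 4.18 and 4.56 CPM in MKα3− and MKα3+ cells with vehicle, and a call with LN332 (0.69 ± 0.29, adjusted p = 0.0824) was gained without MKα3− vehicle replicate 1 (0.0424) or MKα3− LN332 replicate 2 (0.0493).

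**Figure D3:**
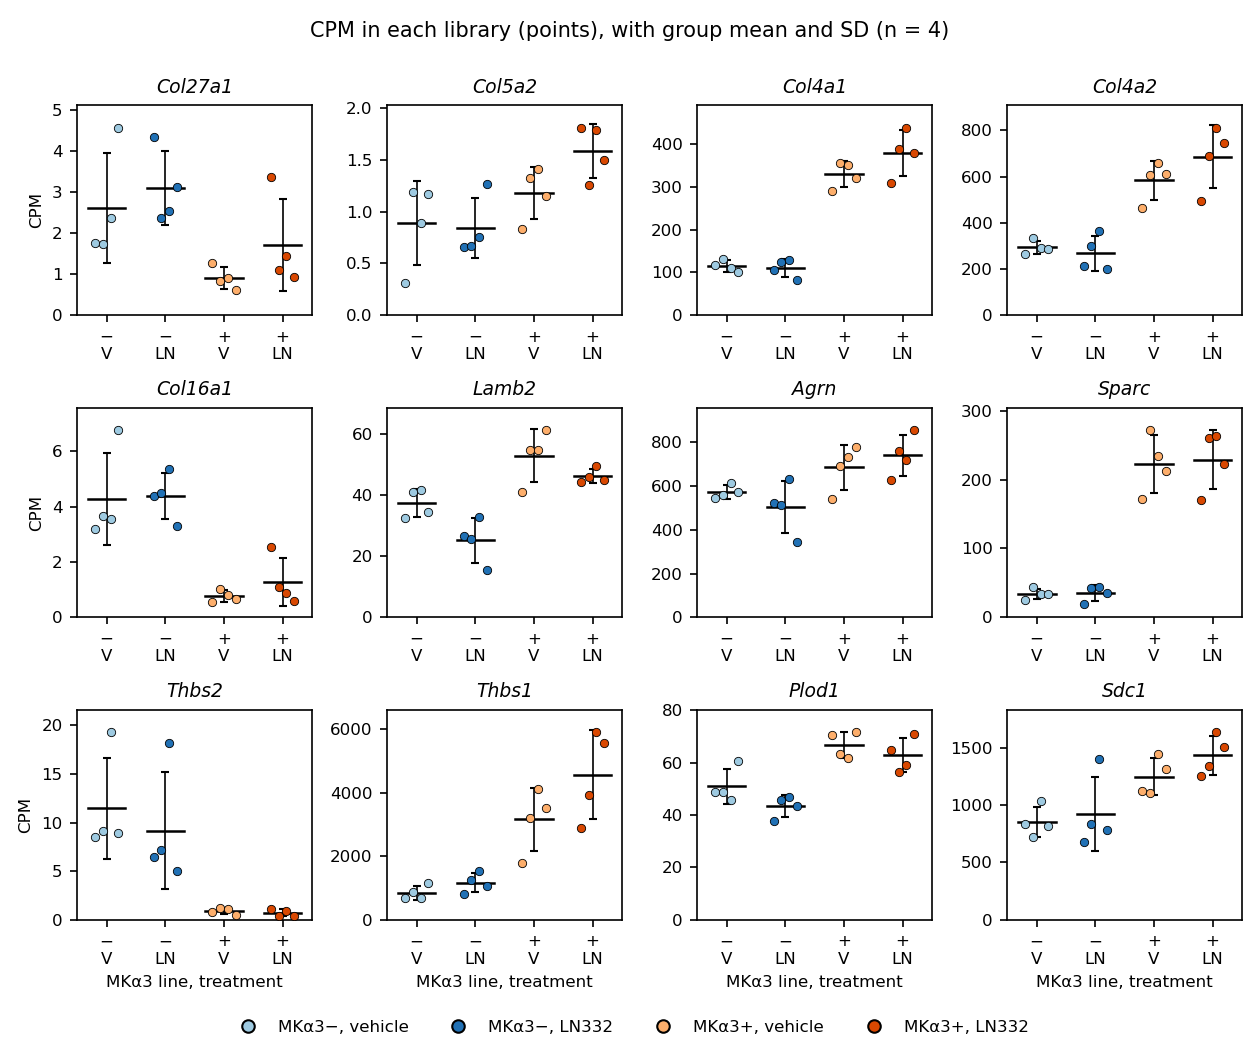
CPM of 12 of the 14 genes called in at least 1 comparison, in each of the 16 libraries (points), with the group mean (bar) and SD (whisker, n = 4); V is vehicle, LN is LN332, and − and + are the MKα3− and MKα3+ lines. For *Col4a1*, *Col4a2*, *Sparc*, *Thbs1*, *Thbs2* and *Col16a1* the lines do not overlap in either medium, whereas for *Col5a2* and *Agrn* they do in both.

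Among the fibril-associated and network collagens, *Col16a1* alone was called. It encodes the α1 chain of type XVI collagen, a fibril-associated collagen found near the dermal-epidermal junction (chr4:130047817-130099277). It measured 3.19, 3.66, 3.54 and 6.77 CPM in MKα3− and 0.546, 1.04, 0.823 and 0.684 CPM in MKα3+ cells with vehicle. With LN332 it measured 4.38, 4.49, 5.38 and 3.32 CPM in MKα3− and 2.53, 1.10, 0.895 and 0.599 CPM in MKα3+ cells. The lines did not overlap, with replicate 1 the highest of MKα3+ under LN332. *Col16a1* fell 5.37-fold with vehicle (log2 fold change -2.42 ± 0.40, adjusted p = 0.000179) and 3.95-fold with LN332 (-1.98 ± 0.36, adjusted p = 0.000484). The other 4 genes of this role, *Col6a1*, *Col6a2*, *Col6a3* and *Col12a1*, had log2 fold changes from -0.55 to 0.72 over both media, and the most abundant, *Col12a1*, had 14.7 and 19.8 CPM in MKα3− and MKα3+ cells with vehicle. *Col6a1* was called with vehicle without MKα3− vehicle replicate 4 (1.04, adjusted p = 0.00927, against 0.69 and 0.103 with all libraries).

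The fibrillar collagens were scarce, and most were not called between the lines. *Col27a1*, type XXVII collagen of cartilage and other tissues, measured 1.76, 1.73, 2.37 and 4.56 CPM in MKα3− and 1.27, 0.842, 0.901 and 0.612 CPM in MKα3+ cells with vehicle. In LN332 medium it stood at 4.35, 2.37, 2.55 and 3.13 CPM in MKα3− and 3.37, 1.10, 1.44 and 0.937 CPM in MKα3+ cells. The lines were apart with vehicle and overlapped with LN332, through replicate 1 of MKα3+. It fell by 1.43 ± 0.43 on the log2 scale with vehicle (adjusted p = 0.0199) and differed by -0.99 ± 0.38 with LN332 (adjusted p = 0.055). The vehicle call was lost without vehicle replicate 4 of MKα3− (adjusted p = 0.051) or of MKα3+ (adjusted p = 0.0692), and an LN332 call was gained without MKα3− vehicle replicate 4 (0.0296), MKα3− LN332 replicate 2 (0.0473) or MKα3+ LN332 replicate 1 (0.012).

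*Col5a2*, the α2 chain of type V collagen, measured 0.316, 1.19, 0.886 and 1.17 CPM in MKα3− and 0.837, 1.32, 1.41 and 1.15 CPM in MKα3+ cells with vehicle. After LN332 it stood at 0.660, 0.671, 0.754 and 1.27 CPM in MKα3− and 1.81, 1.26, 1.79 and 1.498 CPM in MKα3+ cells. In both media the groups overlapped, under LN332 by MKα3− replicate 4 alone, and the gene had 9 to 46 counts per library. It was called with LN332 only (0.97 ± 0.36, adjusted p = 0.0457, against 0.53 ± 0.36 and 0.305 with vehicle), and leaving out any 1 of 10 libraries ended that call, with an adjusted p of up to 0.109. Those were MKα3− vehicle replicate 3, MKα3+ vehicle replicates 2, 3 and 4, MKα3− LN332 replicates 1, 2 and 3, and MKα3+ LN332 replicates 1, 3 and 4. The call was also missed by edgeR's quasi-likelihood test (adjusted p = 0.0551). *Col1a1*, the most abundant fibrillar collagen, had a log2 fold change of 0.26 ± 0.24 with vehicle and 0.40 ± 0.22 with LN332, and was not called. Limma-voom with sample quality weights called *Col1a1* higher with LN332 (0.63, adjusted p = 0.0195). *Col1a2*, *Col3a1*, *Col5a1* and *Col5a3* were not called.

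Of the laminin chains outside laminin-332, *Lamb2* alone was called, and with LN332 only. *Lamb2* (chr9:108479847-108490530) encodes the β2 chain that takes the place of β1 in laminin-521. It measured 32.5, 41.1, 41.7 and 34.6 CPM in MKα3− and 41.0, 54.9, 54.6 and 61.2 CPM in MKα3+ cells with vehicle. With LN332 it measured 26.6, 25.6, 33.0 and 15.4 CPM in MKα3− and 44.1, 46.03, 49.5 and 44.9 CPM in MKα3+ cells. The lines overlapped narrowly with vehicle and were apart with LN332. The log2 fold change was 0.90 ± 0.17 with LN332 (adjusted p = 0.000723) and 0.49 ± 0.16 with vehicle (adjusted p = 0.0321), where it stayed just under the size required and passed both limits without MKα3− vehicle replicate 2 or 3 or MKα3+ vehicle replicate 1 (0.54, 0.54 and 0.61). The difference between those values was 0.41 ± 0.24 (interaction of LN332 and α3, unadjusted p = 0.101), so *Lamb2* is not shown to differ between the media.

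*Lama5*, the most abundant laminin chain of this list, measured 1236, 1077, 1286 and 1167 CPM in MKα3− and 840.0, 998, 1008 and 1054 CPM in MKα3+ cells with vehicle, and its log2 fold change was -0.29 ± 0.18 (adjusted p = 0.256). *Lamb1*, the β1 chain, had log2 fold changes of 0.20 ± 0.14 with vehicle and 0.45 ± 0.14 with LN332. The adjusted p of *Lamb1* with LN332 was 0.0219, at a size under that required, and without MKα3− LN332 replicate 2 or 3 or MKα3+ LN332 replicate 1 it reached that size (0.52, 0.50 and 0.53). *Lamc1*, the γ1 chain, had -0.41 ± 0.22 and -0.23 ± 0.22, and *Lama4* stayed under 5 CPM.

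Among the linkers, *Agrn*, agrin, measured 542, 555, 614 and 571 CPM in MKα3− and 537, 688, 728 and 777 CPM in MKα3+ cells with vehicle. In LN332 medium, levels were 521, 511, 629 and 345 CPM in MKα3− and 625, 756, 719 and 852 CPM in MKα3+ cells. The lines overlapped in both media, under LN332 only between 625 and 629 CPM, and MKα3− replicate 4 was low. The log2 fold change was 0.59 ± 0.16 with LN332 (adjusted p = 0.00859) and 0.25 ± 0.16 with vehicle (adjusted p = 0.268). Without MKα3− LN332 replicate 4 the LN332 value was 0.41 and no longer met the size required. *Hspg2*, perlecan, was not called in either medium (0.00 ± 0.26 and 0.47 ± 0.26). Replicate 1 of MKα3+ held 157 CPM of *Hspg2* with vehicle and 171 CPM with LN332, while the other 6 MKα3+ libraries held 298 to 350 CPM, and without LN332 replicate 1 of MKα3+ it was called with LN332 (0.70, adjusted p = 0.0357). *Nid1*, nidogen-1, which joins laminin to type IV collagen, stayed under 5 CPM.

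*Plod1* and *Sdc1* completed the called genes. *Plod1*, a lysyl hydroxylase of collagen, measured 49.0, 48.8, 45.7 and 60.8 CPM in MKα3− and 70.7, 63.2, 61.8 and 71.6 CPM in MKα3+ cells with vehicle. After LN332 the values were 37.7, 45.9, 47.0 and 43.6 CPM in MKα3− and 64.9, 56.6, 59.1 and 71.0 CPM in MKα3+ cells. The lines did not overlap in either medium. The adjusted p was 0.00885 with vehicle and 0.00102 with LN332, at log2 fold changes of 0.39 ± 0.10 and 0.53 ± 0.11, so that only the second met the size required. Without MKα3− LN332 replicate 1 or MKα3+ LN332 replicate 4 it fell to 0.46 and the call ended. *Plod2*, *P4ha1* and *P4ha2*, the other lysyl and prolyl hydroxylases, were not called, and *P4ha2* had 0.15 ± 0.20 and 0.41 ± 0.20, with an LN332 call without MKα3− LN332 replicate 3 (0.57, adjusted p = 0.0373). Among the lysyl oxidases, which cross-link collagen and elastin, *Lox*, *Loxl1* and *Loxl3* had log2 fold changes between -0.01 and 0.58 over both media and none was called, while *Loxl1* was called with vehicle without MKα3− vehicle replicate 4 (0.94, adjusted p = 0.0448, against 0.58 and 0.243).

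*Sdc1* (chr12:8771396-8793716) encodes syndecan-1, the main syndecan of keratinocytes. It measured 836, 725, 1032 and 819 CPM in MKα3− and 1120.0, 1109, 1446 and 1316 CPM in MKα3+ cells with vehicle. With LN332 it measured 679, 840, 1400.0 and 784 CPM in MKα3− and 1257, 1339, 1635 and 1511 CPM in MKα3+ cells. The lines were apart with vehicle and overlapped with LN332 through MKα3− replicate 3. The rise was 0.55 ± 0.18 on the log2 scale with vehicle (adjusted p = 0.0315) and 0.69 ± 0.18 with LN332 (adjusted p = 0.00825). The vehicle call was lost without MKα3− vehicle replicate 1, 2 or 4 or MKα3+ vehicle replicate 3 or 4, with adjusted p from 0.061 to 0.0983. *Sdc4*, *Gpc1*, *Vcan* and *Bgn* were not called, and *Sdc4*, the most abundant of the 4, had log2 fold changes of -0.02 ± 0.08 and -0.21 ± 0.08.

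**Figure D4:**
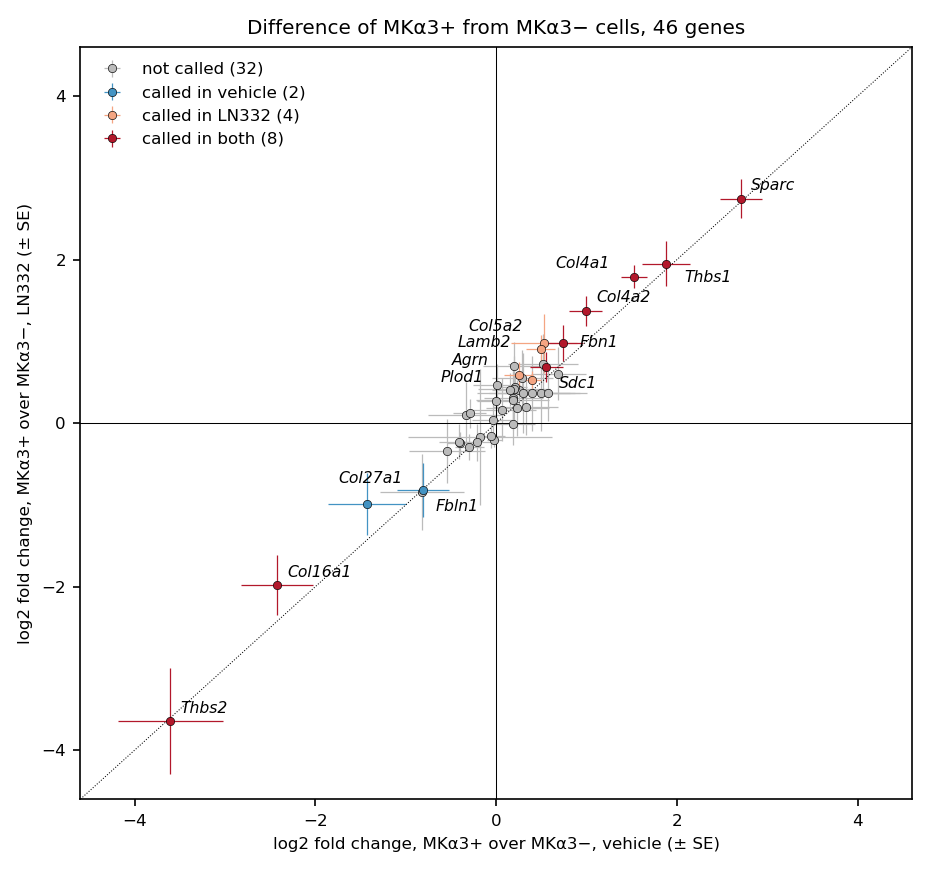
Log2 fold change of MKα3+ over MKα3− cells for the 46 genes with vehicle (horizontal axis) and with LN332 (vertical axis), each with its SE; colours give the comparisons in which a gene was called, and the dotted line marks equal values. The 8 genes called in both media lie close to that line, from *Thbs2* at -3.61 and -3.64 to *Sparc* at 2.71 and 2.74, and 32 genes are not called.

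The vehicle result was recomputed without the 3 MKα3+ libraries high in *Adgre1*. It then held 6 called genes, 4 higher (*Col4a1*, *Col4a2*, *Sparc* and *Thbs1*) and 2 lower (*Col16a1* and *Thbs2*). The share of all genes called in this fit is not given here, so its counts cannot be set beside the transcriptome. *Fbn1* (adjusted p = 0.134), *Sdc1* (0.307), *Col27a1* (0.187) and *Fbln1* (0.336) were lost, with only 2 MKα3+ vehicle libraries left. With LN332, 10 were called without them, and *Col5a2* (0.998, adjusted p = 0.107) and *Plod1* (0.47, adjusted p = 0.0113) were lost. With vehicle, *Sparc* then had a log2 fold change of 2.68, *Col4a1* 1.49, *Col4a2* 0.86, *Thbs1* 1.54, *Col16a1* -2.43 and *Thbs2* -3.38. These 6 genes stayed called in both media under every one of the 27 alternatives tried that kept the size limit of 0.5.

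No change with added LN332 was called among these genes. None of the 46 passed the test for LN332 against vehicle in MKα3+ cells (0.187% of all genes did), in MKα3− cells (0.304%) or as an average over both lines (1.35%), by limma-voom. At an unadjusted p under 0.05 there were 1, 3 and 5 of 46. The average called *Tnc* without MKα3− LN332 replicate 1 (0.86, adjusted p = 0.0137, against 0.71 and 0.0809). edgeR's quasi-likelihood test called none in the 3 comparisons, and DESeq2 called *Lamb2* in MKα3− cells and *Tnc* in the average. The interaction of LN332 and α3 called none of the 46 and none of the 14474 genes (0%), with 0 of 46 at an unadjusted p under 0.05, and edgeR and DESeq2 called none of the 46. The mean log2 fold change over the 46 genes was 0.18 in MKα3+ and 0.04 in MKα3− cells, with 37 and 26 of 46 above 0. Over all genes the mean was -0.01 in each line, with 48.5% and 48.9% of genes above 0. The log2 level averaged over the 46 genes in each library overlapped between the media in both lines. It ranged from 3.78 to 4.13 with vehicle and from 4.09 to 4.23 with LN332 in MKα3+ cells. Each replicate number of MKα3+ was higher with LN332 than with vehicle (4.09 against 3.78, 4.14 against 4.07, 4.23 against 4.13 and 4.13 against 3.99). In MKα3− cells the ranges were 3.51 to 4.20 and 3.81 to 4.10. There replicates 1 and 3 were higher with LN332, and replicates 2 and 4 were lower. Neither the counts above 0 nor these differences by replicate number were tested, so a shift of the list with LN332 is not shown.

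In MKα3+ cells, libraries with the same replicate number deviated together. A model that also holds a term for each number (a replicate block) was therefore read beside this result. The block was fitted over all 16 libraries, so each term was shared by all 4 groups. Over all groups, 18 of 24 same-numbered pairs had a correlation over 0.1. The mean was 0.255, against -0.08 for libraries of unlike number. Between other groups same-numbered libraries did not always deviate together (lowest correlation -0.047). The calls of the block therefore also rest on libraries that share only a number. The block called 2 of 46, *Tnc* and *Col12a1*, where 1.51% of all genes were called. *Tnc* encodes tenascin-C, a matricellular protein of healing wounds. It measured 3.13, 4.81, 5.13 and 5.18 CPM with vehicle and 7.23, 8.04, 10.2 and 9.52 CPM with LN332 in MKα3+ cells. Every LN332 library was above every vehicle library. In this comparison the groups did not overlap in 6.52% of the 46 genes, beside 9.66% of all genes. The log2 fold change of *Tnc* was 0.96 ± 0.31 without the block (adjusted p = 0.239) and 0.92 ± 0.21 with it (adjusted p = 0.0252). In MKα3− cells *Tnc* measured 1.93, 4.82, 4.14 and 5.84 CPM with vehicle and 2.79, 7.66, 5.53 and 7.09 CPM with LN332, groups that overlapped (0.46 ± 0.33, adjusted p = 0.575). The responses of the lines differed by 0.49 ± 0.45 (unadjusted p = 0.289), so *Tnc* is not shown to respond differently in them.

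*Col12a1* encodes type XII collagen, which associates with fibrils of type I collagen. In MKα3+ cells it measured 13.3, 18.1, 22.6 and 24.9 CPM with vehicle and 18.7, 29.8, 32.9 and 42.2 CPM with LN332. The groups overlapped, while each replicate number was higher with LN332 than with vehicle. The log2 fold change was 0.63 ± 0.36 without the block (adjusted p = 0.625) and 0.64 ± 0.17 with it (adjusted p = 0.0496). In MKα3− cells it was 0.42 ± 0.39 (adjusted p = 0.687).

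**Figure D5:**
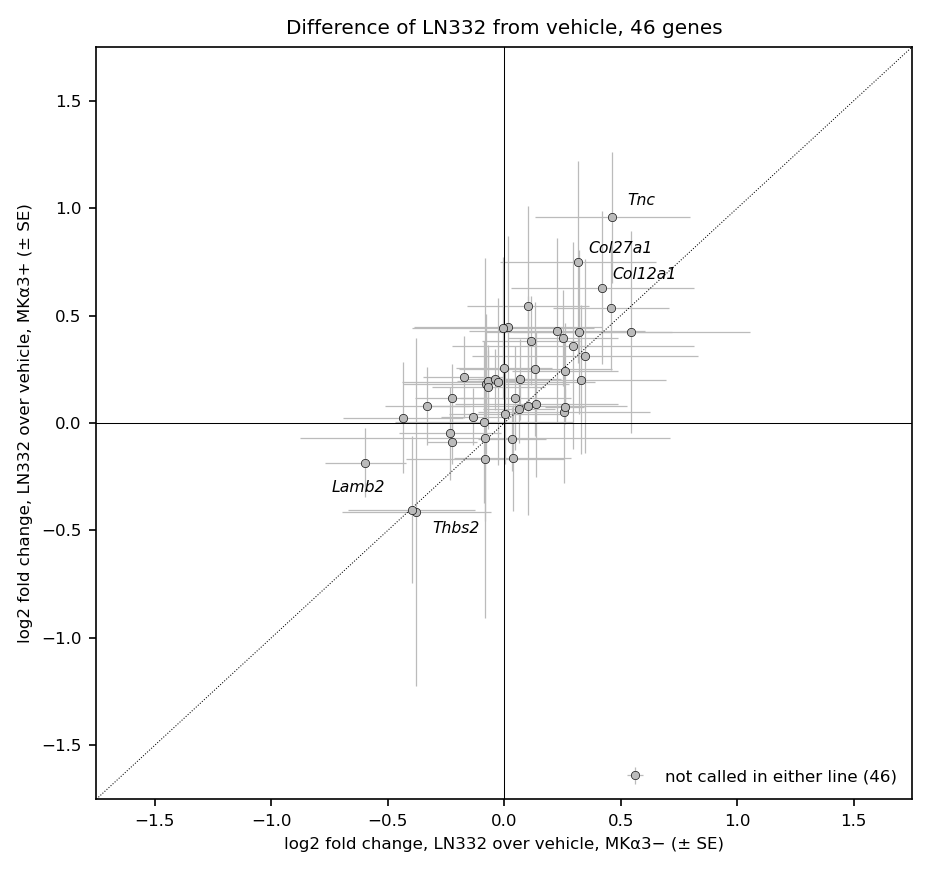
Log2 fold change of LN332 over vehicle for the 46 genes in MKα3− (horizontal axis) and MKα3+ cells (vertical axis), each with its SE; the dotted line marks equal values, and 5 genes are named. No gene was called in either line by the fit without a block, and *Tnc*, at 0.46 and 0.96, is the highest in MKα3+ cells.

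*Lamb2* had the lowest value of the 46 genes in MKα3− cells, at -0.60 ± 0.17 (unadjusted p = 0.0032, adjusted p = 0.149). Per kilobase, *Lamb2* stood to *Lamb1* as 0.356 ± 0.048 to 1 with vehicle and 0.239 ± 0.043 to 1 with LN332 in MKα3− cells (SD, n = 4), and as 0.433 ± 0.036 and 0.331 ± 0.036 in MKα3+ cells. In both lines every LN332 library was below every vehicle library. In an exact two-sided permutation test p was 0.0286 in each, and 0.0686 adjusted over the 12 ratio tests, which does not pass 0.05. As for the type IV chains, the adjusted value could pass only if more of those tests reached 0.0286, so the test cannot decide this ratio. The ratio of *Lama5* to *Lamc1* overlapped between the groups in all 4 comparisons (exact permutation p from 0.371 to 0.886).

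What the start regions of the 46 genes share was described for 35 of them, with 41 windows of 300 bases. GGGCGG was found on either strand in 75.6% of these windows and in 35.7% of the 32851 windows of all genes. TATAA was found in 29.3% and 24.9%, CCAAT in 34.1% and 37.4%, TGACTCA in 2.44% and 5.2%, and ACGTG in 14.6% and 19.6%. The median GC content was 61.7% in the windows of the list and 52.7% in all windows. The windows of the list belong to genes present in the counts table, whereas the windows of all genes were not limited to that table. The sets are thus unlike, and the contrast is not shown to be particular to the list. These motifs do not contain one another, and matches were not tested against expression.

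Other genes of the collagen and matrix pathways were read beside the list, from lists drawn up by function. Those lists too were chosen with earlier results of these data known. Their shares of called genes are a description, and an excess over all genes is not shown. Of 27 genes for folding, processing and export of collagen, 22 were in the table, and 6 were higher and 1 lower in MKα3+ cells with vehicle (31.8%, beside 18.5% of all genes). *Adamts14*, a procollagen N-proteinase, rose from 2.69 ± 1.65 to 27.8 ± 5.91 CPM (log2 fold change 3.52 ± 0.30, adjusted p = 1.52e-07), and *Pcolce2*, a procollagen C-proteinase enhancer, rose from 1.24 ± 0.21 to 10.9 ± 2.14 CPM (3.10 ± 0.31, adjusted p = 7.29e-07). *Mia2*, whose product helps to export bulky cargo from the endoplasmic reticulum, had 1.98 ± 0.28 and *Pcolce* had 0.84 ± 0.12. The median of the 22 genes was 0.04. With LN332, 7 were higher and 1 was lower (36.4%, beside 20.6% of all genes).

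Of 24 collagen and laminin-like chains outside the list, 11 were in the table, 2 higher and 3 lower with vehicle and again with LN332 (45.5% in each, beside 18.5% and 20.6% of all genes). *Col26a1* rose (3.36 ± 0.46 with vehicle, adjusted p = 2.81e-05), as did *Ntn4*, netrin-4 of basement membranes (1.09 ± 0.15, adjusted p = 3.58e-05). *Col11a2* fell by 1.70 ± 0.41 and *Col20a1* by 1.17 ± 0.20 on the log2 scale with vehicle. Of 36 other matrix glycoproteins, 26 were in the table, 5 higher and 3 lower with vehicle (30.8%, beside 18.5% of all genes). *Fbln2*, fibulin-2, which binds laminins and nidogen, rose from 53.2 ± 19.8 to 1187 ± 48.5 CPM (4.55 ± 0.22, adjusted p = 3.05e-10). *Fn1*, fibronectin, rose from 7.32 ± 2.58 to 32.8 ± 10.2 CPM (2.19 ± 0.32, adjusted p = 6.24e-05). *Emilin2* (2.27 ± 0.77) and *Smoc1* (1.97 ± 0.46) were also higher. With LN332, 5 were higher and 1 was lower (23.1%, beside 20.6% of all genes).

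All 14 genes of non-integrin matrix receptors and their relatives were in the table, with 2 higher and 2 lower in each medium (28.6%, beside 18.5% of all genes with vehicle and 20.6% with LN332). *Ddr2*, a receptor tyrosine kinase for fibrillar collagen, rose from 15.2 ± 2.27 to 59.9 ± 9.25 CPM (1.98 ± 0.18, adjusted p = 2.03e-07) and *Gpc6*, a glypican, from 0.521 ± 0.190 to 5.93 ± 2.60 CPM (3.36 ± 0.64). *Bcam*, a receptor for laminin α5, fell by 1.23 ± 0.21 and *Gpc4* by 0.63 ± 0.13 on the log2 scale. Without the 3 libraries high in *Adgre1*, the vehicle calls of *Emilin2* (1.22, adjusted p = 0.255), *Ltbp2* and *Spon2* in the glycoprotein list and of *Col11a2* (-1.81, adjusted p = 0.0502) and *Col9a3* among the chains were lost. With LN332, *Colgalt1*, *Col4a4*, *Col9a3* and *Col20a1* were lost and *Tgfbi* was gained as lower, and the receptor list held the same counts in both media. In none of these 4 lists was a gene called for LN332 against vehicle in either line by limma-voom.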

How the data were processed

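Per the labels and the study's methods, the authors mapped reads to the mm10 mouse genome by Rsubread, obtained gene counts by featureCounts from its built-in Entrez annotation, and deposited raw counts for 14474 genes that passed CPM over 0.5 in at least 3 samples. All genes in the deposited counts passed that filter again. The strand setting is not given in the sources used here. Groups were taken from the sample labels.

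From the counts, CPM with TMM factors were computed in edgeR 4.0.16, and 1 limma-voom model (limma 3.58.1, R 4.3.3) was fitted over all 16 libraries with a coefficient per group. P-values were adjusted by Benjamini-Hochberg over all 14474 genes, and a gene was called where the adjusted p was under 0.05 and the log2 fold change was more than 0.5 in size. Fold changes are given with the SE of limma. DESeq2 1.42.0, edgeR's quasi-likelihood test, other scalings and filters, and omitted libraries were the alternatives. The script recovered known changes in simulated counts. Exact permutation tests compared single values of 4 libraries with 4, which cannot give a p below 0.0286.

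The members and the lists were chosen with earlier results of these data known. All members are accounted for. In each role, the 2 called genes with the largest vehicle fold change are given by library, and the other called genes by their means and fold changes. From each related list at most 4 called genes with the largest vehicle fold change are named. *Tnc* and *Col12a1* are given by library, and *Col18a1*, *Lama5* and *Hspg2* in part, after their values were seen. Gene positions and start regions are those of RefSeq, matched by Entrez ID, and exon lengths are unions of GENCODE vM21 exons. No library pair agreed within sampling noise (smallest chi-square per degree of freedom 5.45).

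Same-numbered libraries were taken as pairs where the correlation of their deviations from the group means was over 0.1 for all 4 numbers. That held for LN332 and vehicle in MKα3+ cells (0.62, 0.474, 0.202 and 0.58). In the other 3 comparisons of 2 groups at least 1 number fell short, and there the samples share only a number.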

Additional observations from a re-analysis of the deposited data

Results flagged for a closer look

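In 11 of 184 sets of 4 replicates, 1 library stood apart from the other 3 by more than Dixon's 95% limit for the gap over the range, where chance alone gives about 9.2. *Thbs2* did so in replicate 3 of MKα3− in both media, at 19.3 CPM with vehicle (others 8.53 to 9.12 CPM) and 18.1 CPM with LN332 (others 4.99 to 7.13 CPM). Other called genes had such a library, with *Col16a1* at 6.77 CPM in MKα3− vehicle replicate 4 (others 3.19 to 3.66 CPM), *Col5a2* at 1.27 CPM in MKα3− LN332 replicate 4 (others 0.660 to 0.754 CPM) and *Fbn1* at 3.92 CPM in MKα3+ vehicle replicate 3 (others 3.02 to 3.17 CPM).

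In replicate 1 of MKα3+, *Hspg2* held 157 CPM with vehicle (others 321 to 332 CPM), *Lamc1* held 76.2 CPM with LN332 (others 118 to 125 CPM) and *Col5a3* held 3.17 CPM with LN332 (others 0.447 to 0.506 CPM). *Col7a1* reached 545 CPM in MKα3− LN332 replicate 3 (others 305 to 326 CPM), *Loxl3* reached 5.73 CPM in MKα3− vehicle replicate 4 (others 2.94 to 3.32 CPM) and *Gpc1* held 28.4 CPM in MKα3− LN332 replicate 1 (others 43.6 to 46.3 CPM). No interaction of LN332 and α3 passed the test among these genes.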

How the results depend on the processing

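The direction of each called change held under every alternative tried, and 41 of 593 alternative values of called genes were no longer past both limits. With a minimum log2 fold change of 1, 6 of the 46 genes were called with vehicle and 6 with LN332, beside 9.41% and 9.29% of all genes. Without the 3 libraries high in *Adgre1*, chosen after seeing the data, 6 were called with vehicle. The share of all genes called is not given for this fit or for other fits with omitted libraries, so their counts cannot be set beside it. Leaving out 1 library at a time gave 7 to 11 calls with vehicle and 10 to 14 with LN332. It gave 0 to 1 for the average LN332 comparison and none in each of the other 3 comparisons. The mean log2 fold change then ranged from -0.10 to 0.21 and from 0.18 to 0.27 for α3 with vehicle and LN332, from 0.10 to 0.24 and from -0.13 to 0.17 for LN332 in MKα3+ and MKα3− cells, from 0.03 to 0.18 for their average and from 0.01 to 0.32 for the interaction.

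For LN332 against vehicle in MKα3+ cells, 1 gene (*Tnc*) was called with sample quality weights, 1 with only the groups compared and 1 without the 4 libraries numbered 1 (added after seeing the data), and 2 with the replicate block. In MKα3− cells, DESeq2 called 1 and the replicate block 1, in both cases *Lamb2*. For the average, DESeq2 called 1, sample quality weights 2, the replicate block 2 and the fit without the libraries numbered 1 called 2. The block called 10 with vehicle and 16 with LN332 for α3, where it added *Fbln1*, *Col27a1*, *Tnc* and *Col12a1*, and none for the interaction, and over all genes it called 23.4% for α3 with LN332, 1.79% for LN332 in MKα3− cells and 2.51% for the average. Of 16 libraries, 14 correlated best with their own number, a hint from the data and not the design. The fit of only the groups compared was not made for the average and the interaction, which use all 4 groups. For that fit, DESeq2, the sample quality weights and the block with vehicle, the share of all genes called is not given. The cause of these changes was not tested. Low counts limit the 21 genes under 5 CPM.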
